A study of Homo sapiens with 4 samples.

Results

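The region described is the stretch of chromosome 8 from 127500001 to 130000000 (hg38), which holds the gene MYC, the long non-coding RNA gene PVT1 and the long non-coding RNA gene CCDC26. Its bounds are positions, and its members were chosen with earlier results of these data known. Every H3K27Ac peak in it was taken from the control list and from the list made after treatment with SNDX-50469. It held 842 of the 245875 control peaks and 758 of the 54061 treated peaks, and 30 of the 59679 annotated genes, all of which had a control peak in their body or within 5 kb. Among protein-coding genes, 624 of 715 on chromosome 8 and 15634 of 20037 on all chromosomes had a control peak. Only 3 of the 30 genes are protein-coding, and no such share is given for genes of all kinds.

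H3K27Ac occupancy was profiled by ChIPmentation, in which the transposase Tn5 adds the sequencing adapters to chromatin bound by the antibody. The cells were MOLM13, a human acute myeloid leukemia (AML) line with an MLL1 rearrangement (MLL-AF9) and an internal tandem duplication in FLT3. One library came from cells labelled as having no treatment and the other from cells exposed to 500 nM SNDX-50469, a menin inhibitor, for 16 hours, and the growth protocol names DMSO as the control arm. The series also has 2 input libraries, which were not analysed here. Since each condition had 1 library, there was no replicate check, so no test was made, and the intervals given are Wilson 95% intervals that cover counting error only. The number of reads behind each list is unknown here. A single cell line was profiled at one dose and one time.

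MYC encodes a transcription factor that drives growth and division, and it is one of the genes on which MLL1-rearranged leukemia cells depend. In blood cells MYC is controlled by enhancers that lie far downstream of it, in and near CCDC26, and PVT1, which starts shortly after MYC, holds other enhancers and a promoter of its own. H3K27Ac is laid on active enhancers and promoters, and broad clusters of it are called super-enhancers. A menin inhibitor displaces menin, and with it MLL1 fusion proteins, from chromatin.

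MYC lies at 127735434 to 127742951 on the plus strand and is the only protein-coding member. PVT1 lies at 127794524 to 128101256, also on the plus strand, and its 5′ end is 59.1 kb from that of MYC. CCDC26 lies at 129351694 to 129680239 on the minus strand, so that its 5′ end is the far end of the gene, 1945 kb from that of MYC. The gap between PVT1 and CCDC26 is 1.25 Mb long and holds long non-coding RNA genes, 1 microRNA gene and pseudogenes, but no protein-coding gene. Coordinates are those of RefSeq on GRCh38, gene bodies were taken with 5 kb on both sides, and exons and introns were not told apart. All members lie on chromosome 8, and no sequence is shown.

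Following SNDX-50469 treatment, H3K27Ac peaks covered less of each of the 3 genes, and CCDC26 and MYC kept a larger share of their covered length than PVT1 did. Peaks in control cells covered 307 kb, or 90.6%, of CCDC26, and after treatment 158 kb, or 46.6%. Over PVT1 they covered 207 kb, or 65.4%, in control cells and 46.2 kb, or 14.6%, after treatment. Over MYC the values were 11.8 kb, or 67.3%, and 6.19 kb, or 35.3%. In the gap between PVT1 and CCDC26, peaks covered 301 kb in control cells and 125 kb after treatment, which was 24.2% and 10.1% of its length.

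The kept share is the percentage of the length under control peaks that also lay under treated peaks. It was 50.7% over CCDC26, 50.3% over MYC, 19.6% over PVT1 and 14.5% in the gap. It was 29.3% in the whole region, 18.9% on the rest of chromosome 8 and 8.55% on the other chromosomes. By this measure PVT1 was close to the level of its own chromosome, the gap was below it, and CCDC26 and MYC were above it. The place of PVT1 and of the gap turned with the measure: with peaks of a −log10 q from 2 upward in both lists, PVT1 kept 6.03% and the rest of the chromosome 13.1%, and counted as peaks sharing at least 1 bp, the gap was above the rest of the chromosome, at 30.0% and 24.7%. CCDC26 stayed above the rest of chromosome 8 under every alternative way of choosing peaks that was tried, whereas MYC and PVT1 fell to 0% when both lists were limited to their strongest peaks, because no treated peak there was strong enough.

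**Figure D1:**
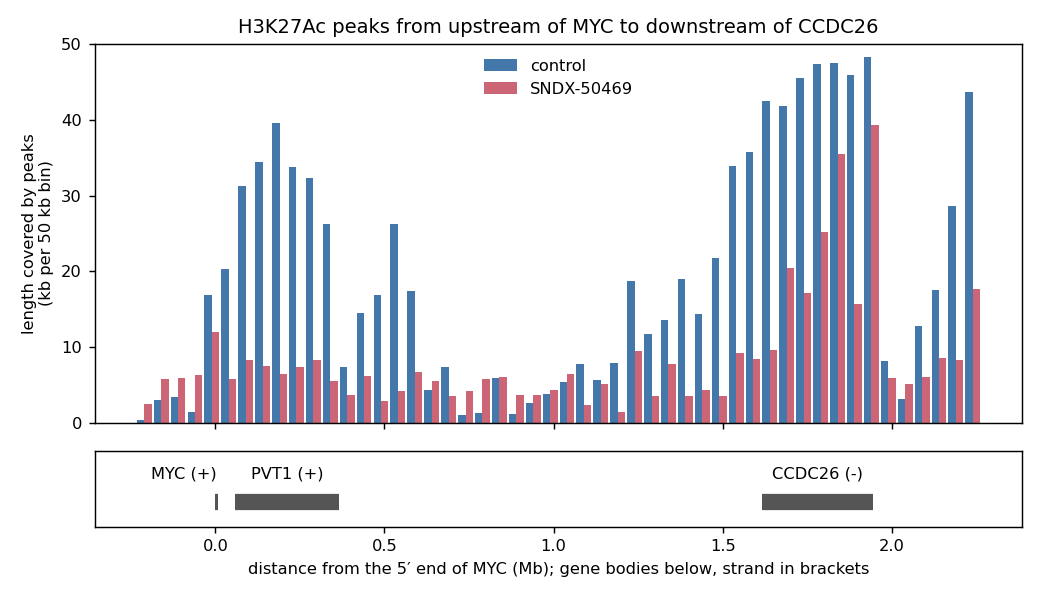
Length covered by H3K27Ac peaks in each 50 kb bin (y axis, kb) of the control list and the SNDX-50469 list, against the distance of the bin from the 5′ end of MYC (x axis, Mb), with the 3 gene bodies below. The bins touching CCDC26 held 35.8 to 48.3 kb in control, and after treatment their cover ranged from 8.42 to 39.3 kb, the highest in the bin over its 5′ end.

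Counting peaks instead of length, 305 of the 842 control peaks of the region (36.2%, interval 33.0 to 39.5%) shared at least 1 bp with a treated peak. Over all chromosomes this share was 8.24%, and on the rest of chromosome 8 it was 24.7% (24.1 to 25.2%). It was 69.1% over CCDC26 (38 of 55 peaks, 56.0 to 79.7%), 41.7% over PVT1 (70 of 168, 34.5 to 49.2%) and 30.0% in the gap (of 426 peaks, 25.9 to 34.6%). Over MYC, 5 of 9 peaks were kept. Width was not matched in these shares. The median control width was 2495 bp over CCDC26, 674.5 bp over PVT1 and 342 bp in the gap. By classes of width, from under 500 bp upward, CCDC26 kept 10.0, 45.5, 90.9 and 100% of its peaks. The rest of chromosome 8 kept 13.6, 32.8, 74.8 and 99.3%, each inside the interval of CCDC26 for that class. The part of width in the higher share over CCDC26 was not tested. The chromosome itself stood apart in the treated list: it held 10.5% of control peaks but 41.9% of treated peaks. Peaks that are near each other are not independent, so that the intervals are narrower than the true uncertainty.

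Treated peaks also lay where control had none. Of the 758 treated peaks in the region, 291 shared no bp with a control peak, or 38.4%, against 43.0% over all chromosomes and 58.2% on the rest of chromosome 8. Per Mb this was 116 in the region, 89.4 on the rest of the chromosome and 3.48 on the other chromosomes. These peaks were weak and short: their median width was 278 bp, their widest was 1610 bp, and none reached a −log10 q of 5, where q is the p-value of the peak caller adjusted for all tests. CCDC26 held 3 of them among 119 treated peaks, and the gap 182 among 333. The positions that control did not cover give a background for the kept share, since treated peaks covered 8.87% of them in the region, 3.98% on the rest of chromosome 8 and 0.0989% on the other chromosomes. In the gap the kept share of 14.5% stood beside a background of 8.66%, over PVT1 19.6% stood beside 5.04%, over MYC 50.3% beside 4.49%, and over CCDC26 50.7% beside 7.28%.

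**Figure D2:**
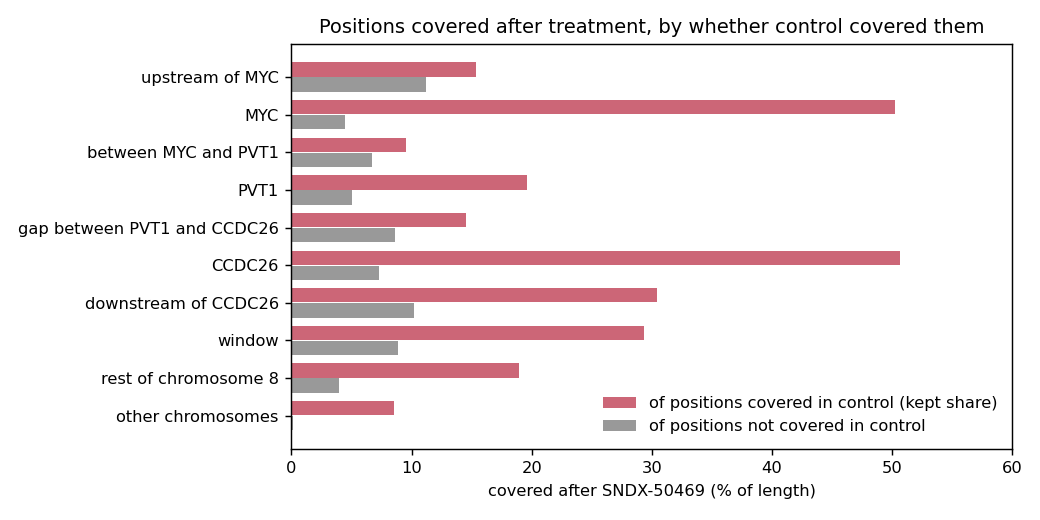
Percentage of length covered after SNDX-50469 (x axis) among positions covered in control and among positions not covered in control, for each stretch of the region, for the whole region ("window") and for the 2 comparators. MYC and CCDC26 reached 50.3% and 50.7% on positions covered in control, while upstream of MYC the bars were 15.4% and 11.2%.

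Over MYC, one peak carried most of the covered length. In control cells it ran from 127734372 to 127741138, over the 5′ end and most of the gene, with a width of 6767 bp and a fold enrichment of 7.78. Its −log10 q was 11.4 and it was the 141st strongest of chromosome 8 by p-value. After treatment one peak from 127734653 to 127739763 lay inside it, 5111 bp wide and with a −log10 q of 3.22, ranking 407th on the chromosome. It covered 75.5% of the control peak, and the length it lost was mainly at the 3′ side. Fold enrichment and p-values are relative to the background used in calling each list, which is not known here. Ranks within a list are therefore given, and the values of the 2 lists are not subtracted. The other 8 control peaks within 5 kb of MYC were 184 to 2247 bp wide, and 4 of them shared no bp with a treated peak.

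CASC11 is a long non-coding RNA gene that starts close to MYC on the opposite strand. The control peak over MYC began within 1 kb of the 5′ end of CASC11 but did not cover it. Within 1 kb of that 5′ end, 1087 bp were covered in control cells, and 29.0% of this length was kept. Peaks covered 11.8 kb of CASC11 and its flanks in control cells and 10.7 kb after treatment, of which 5.04 kb was covered in both, a kept share of 42.8%. Upstream of MYC, cover was higher after treatment, with 12.9 kb in control cells and 26.3 kb after it, and only 1.98 kb in both. Of the 69 treated peaks there, 58 shared no bp with control.

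PVT1 had 168 control peaks, and for 2 of them the −log10 q was 5 or more. The stronger one spanned its 5′ end, from 127793722 to 127796951, was 3230 bp wide with a −log10 q of 11.4, and ranked just above the MYC peak, 138th on chromosome 8. A treated peak from 127794545 to 127796854 covered 71.5% of it. The other, from 127809069 to 127812991 inside the gene, was 3923 bp wide, and 18.1% of it was covered after treatment. The widest control peak of PVT1, from 128044112 to 128052575, was 8464 bp wide and spanned the microRNA gene MIR1207. After treatment 44.0% of it was covered, by 3 peaks, one of which was the widest treated peak of PVT1 at 2412 bp. The next 4 widest control peaks were 5790 to 6726 bp wide and were covered over 8.95 to 23.5% of their length. Most of PVT1 was thus covered by peaks of low strength in control cells, 97 of them with a −log10 q under 2 and 69 from 2 to 5.

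The 2.5 Mb region included 20 control peaks whose −log10 q was 5 or more. CCDC26 and its flanks held 12 of them, the stretch downstream of it 6 including one that spanned the boundary, PVT1 2, MYC 1 and the gap none. Each of the 20 shared at least 1 bp with a treated peak, as did 583 of 618 on the rest of chromosome 8 and 6624 of 8638 on the other chromosomes. Width was not matched in this count either. After treatment 6 peaks reached this strength, 5 in CCDC26 and 1 downstream of it, in CYRIB, which encodes a protein that binds the GTPase RAC1.

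**Figure D3:**
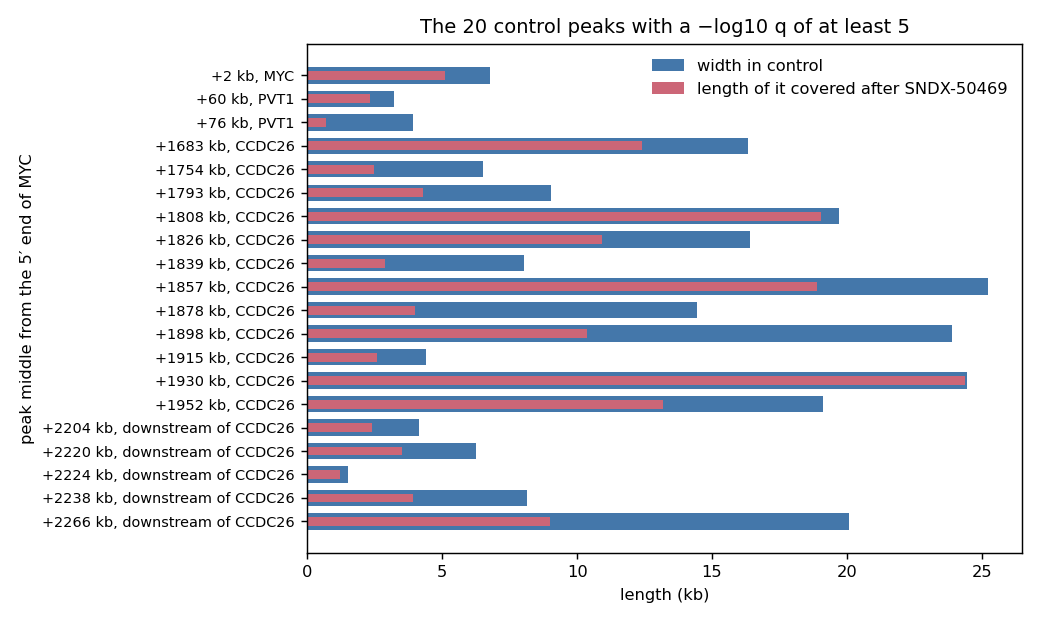
The 20 control peaks of the region whose −log10 q was 5 or more, ordered by the distance of their middle from the 5′ end of MYC (y axis), with their width in control and the length of it covered after SNDX-50469 (x axis, kb). Each bar has a treated part, from 18.1% of the width at the second PVT1 peak to 99.8% at the CCDC26 peak 1930 kb from MYC.

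In CCDC26, the 3 strongest control peaks by p-value were also the 3 strongest of chromosome 8, and ranked 3rd, 4th and 5th among all 245875 control peaks. The first, from 129533583 to 129553280, was 19698 bp wide with a fold enrichment of 20.6, and 96.6% of it was covered after treatment. The treated peak over it, from 129535030 to 129553282, was the strongest of chromosome 8 and the 8th strongest of all treated peaks, with a −log10 q of 22.8. This peak was thus high in both lists and changed little in extent.

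The second, from 129580149 to 129605381, was the widest control peak of the region at 25233 bp, with a fold enrichment of 19.7. Treated peaks covered 74.9% of it, and the larger of them, from 129580172 to 129598492, was 18321 bp wide. The third, from 129652785 to 129677223, was 24439 bp wide with a fold enrichment of 20.0, and one treated peak from 129652799 to 129677182 covered 99.8% of it. That treated peak, 24384 bp, was the widest of chromosome 8 and the 3rd widest of all treated peaks. By width, the control peak under it was 32nd on the chromosome and 243rd of all. By p-value, that treated peak ranked 8th on the chromosome and 48th of all, against 3rd and 5th for the control peak. The treated peak from 129580172 to 129598492 ranked 5th and 40th by p-value, against 2nd and 4th for the control peak over it. Both thus ranked lower by p-value after treatment.

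Between these peaks, other wide peaks of CCDC26 were broken up. The peak from 129621764 to 129645631 was 23868 bp wide with a −log10 q of 14.6 in control cells, and after treatment 43.5% of it was covered, by 14 separate peaks of at most 1896 bp. The peak from 129606337 to 129620764 was covered over 27.8% by 7 peaks. At the 5′ end of the gene, the peak from 129677733 to 129696842 was 19110 bp wide and the 6th strongest of chromosome 8, and 69.0% of it was covered by 9 peaks. Toward the 3′ end of the gene, the peak from 129409884 to 129426212 was 16329 bp wide with a −log10 q of 7.12, and 75.9% of it was covered by 4 peaks, 2 of which were 6054 and 5442 bp wide. The peak from 129382296 to 129399779 was 17484 bp wide but weak, with a −log10 q of 3.50, and 24.6% of it was covered.

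Of the 10 widest treated peaks of the region, 8 lay in CCDC26, 1 in MYC and 1 in PVT1. Of the 10 widest control peaks, 8 touched CCDC26, 1 lay downstream of it and 1 in the gap. The wide gap peak, from 128256886 to 128274536, was 17651 bp wide with a −log10 q of 3.31, and 8.70% of it was covered after treatment. Its neighbour, from 128243520 to 128256304, was 12785 bp wide and was covered over 10.1%. The widest treated peak of the gap was 1599 bp wide. The gap thus held wide peaks in control cells but none after treatment.

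The 50 kb bins showed where within CCDC26 cover was kept. The bins from 129650001 to 129700000 and from 129550001 to 129600000 kept 81.4% and 74.6% of their control length, ranking 1st and 3rd among the 116 bins of chromosome 8 with at least 40 kb covered in control. The bin between them kept 34.2% and ranked 46th, and the bin from 129350001 to 129400000, at the 3′ end of the gene, kept 21.5% and ranked 89th. Over the 4 bins from 129500001 to 129700000, which lie 1.76 to 1.96 Mb from MYC, the kept share was 61.0%, and no treated peak lay there without a control peak. This stretch held 19.3% of the control length of the region and 27.4% of its treated length. The remainder of CCDC26, on the 3′ side of these bins, kept 35.2%. Without the stretch the region kept 21.8%, and without CCDC26 and its flanks 19.6%, beside 18.9% on the rest of chromosome 8.

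Over the bins of PVT1, from 127800001 to 128100000, control peaks covered 26.2 to 39.6 kb of each bin and treated peaks 5.51 to 8.35 kb. In 13 of the 50 bins of the region treated peaks covered more length than control peaks. These bins lay upstream of MYC, in the middle of the gap and beyond the 5′ end of CCDC26, and 11 of them had under 5 kb covered in control. On the rest of chromosome 8 this was so in 1336 of 2852 bins.

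**Figure D4:**
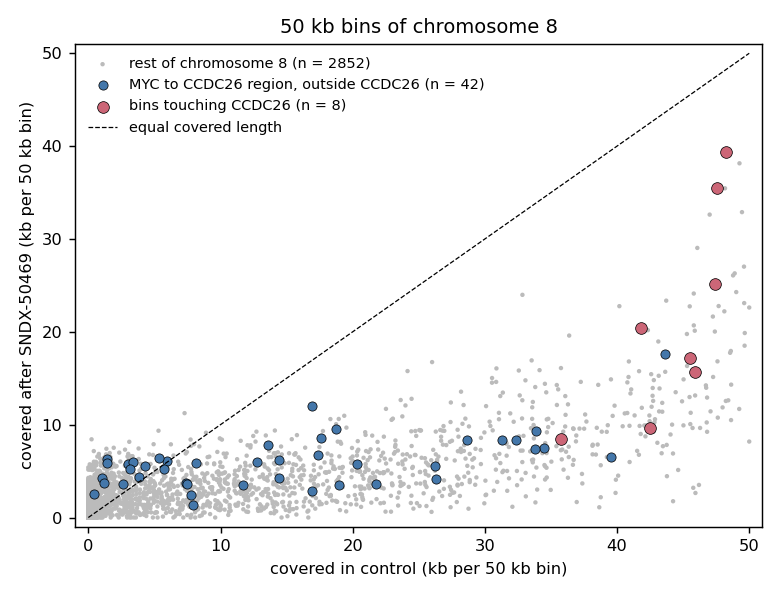
Length covered after SNDX-50469 (y axis, kb) against length covered in control (x axis, kb) in each 50 kb bin of chromosome 8; the dashed line marks equal length. The 8 bins touching CCDC26 lie at 35.8 kb or more in control, and one of them, at 39.3 kb after treatment, is the highest bin of the chromosome.

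Since wide and strong peaks were kept more often everywhere, bins and peaks were set side by side by classes of cover and strength. Among bins with at least 40 kb covered in control, the 8 of the region, 7 of which touch CCDC26, kept 49.0%, the 108 on the rest of chromosome 8 kept 31.2% and the 474 on other chromosomes 17.1%. Among bins with 20 to 40 kb, where PVT1 lies, the region kept 19.0% and the rest of the chromosome 18.9%. Among peaks whose −log10 q reached 20, the 5 of CCDC26 had 84.1% of their length covered after treatment, the 12 on the rest of chromosome 8 had 73.2%, and the 119 on other chromosomes 68.2%. The median over single peaks was 74.9% in CCDC26 and 74.6% on the rest of chromosome 8. From 10 to 20 the shares were 49.7% for the 4 peaks of CCDC26, 48.2% for the rest of the chromosome and 42.4% elsewhere. The class that begins at 20 has no upper limit, and the 3 strongest CCDC26 peaks were stronger than all its other peaks of the chromosome, so that strength was not matched within it. In the class from 10 to 20, the MYC peak at 75.5% and the PVT1 peak at 71.5% lay above the median of 54.2% on the rest of chromosome 8.

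Weak peaks of the region were kept more often than weak peaks on the rest of the chromosome taken as a whole. Among control peaks with a −log10 q under 2, 179 of 625 in the region were kept (28.6%, 25.2 to 32.3%), against 18.9% (18.3 to 19.4%) on the rest of chromosome 8 and 1.46% on other chromosomes. From 2 to 5, 106 of 197 were kept (53.8%, 46.8 to 60.6%), against 38.6% (37.3 to 40.0%) on the rest of the chromosome. The density of treated peaks that control lacked was also higher in the region, and its part in these shares was not tested. The rest of chromosome 8 was uneven. It was cut into windows as long as the region, and the cover after treatment of positions without a control peak was compared. Up to position 47500000 no window exceeded 2.92%. The windows just before and just after the region had 7.79% and 6.52%, beside 8.87% in the region. The kept shares of these neighbours were 21.4% and 19.3%, beside 29.3% in the region. Weak peaks were not counted by window.

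**Figure D5:**
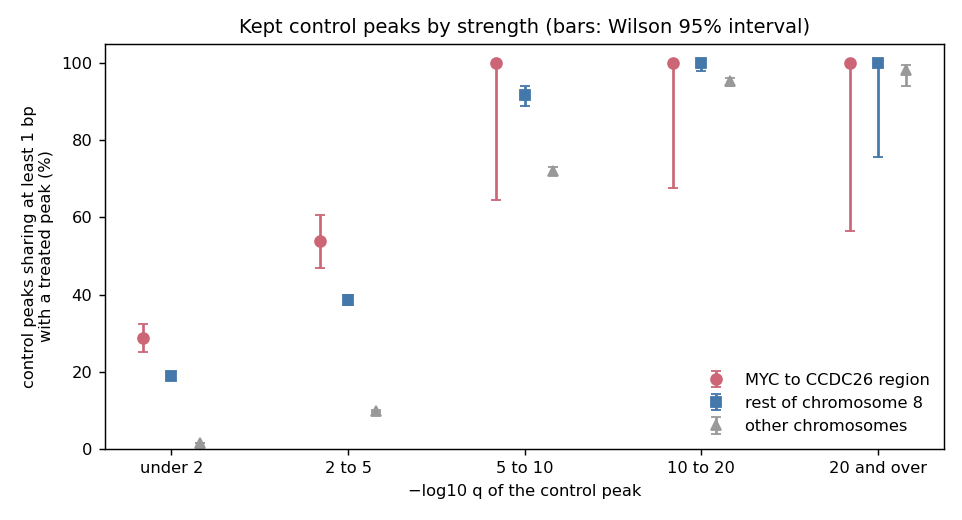
Percentage of control peaks that share at least 1 bp with a treated peak (y axis) by the −log10 q of the control peak (x axis), with Wilson 95% intervals, for the region, the rest of chromosome 8 and the other chromosomes. In the weakest class the values are 28.6%, 18.9% and 1.46%, and from 10 upward both areas of chromosome 8 are at 100%.

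Within 1 kb of the 5′ ends, a span of 2001 bp, control peaks covered all 2001 bp at MYC and at CCDC26 and 1803 bp at PVT1. After treatment 1782 bp were covered at MYC, 980 bp at PVT1 and 2001 bp at CCDC26, kept shares of 89.1%, 54.4% and 100%. The 5′ ends of protein-coding genes on the rest of chromosome 8 kept 54.4% of their covered length and those of other chromosomes 33.3%. At CYRIB, whose 5′ end lies just beyond the region, all 2001 bp were covered in both lists. At GSDMC, a gasdermin gene next to CCDC26, 1421 bp were covered in control cells by weak peaks, and none after treatment.

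Of the 30 genes of the region, 28 had less covered length after treatment and 2, LINC00824 in the gap and LOC105375754 upstream of MYC, had more. Among the protein-coding genes of all chromosomes with a control peak, 98.1% had less, and on chromosome 8 this was 84.5%. Only 3 of the 30 genes are protein-coding, so that these shares are not a like background. Several of the 30 lie inside PVT1 or CCDC26 and count the same peaks again. CYRIB had 117 kb covered in control cells and 48.3 kb after treatment, a kept share of 34.9%, and GSDMC 11.3 and 9.63 kb with 18.9% kept. Among the 2448 annotated genes of chromosome 8 ranked by covered length, CCDC26 was 3rd in control and 1st after treatment, PVT1 9th and 22nd, and MYC 523rd and 389th. By the percentage covered in the 2 libraries, the most similar genes of the chromosome were GFUS, TONSL-AS1 and RNF139-DT for MYC, SLC52A2, LINC01606 and RN7SL563P for PVT1, and LINC01617, LOC105375792 and MIR3150B for CCDC26. GFUS, for example, had 65.2% covered in control cells and 35.3% after treatment, and LINC01617 88.8% and 47.9%.

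When peaks of a list were joined within 12500 bp, as is done to define super-enhancers, and ranked by width times fold enrichment, the region over CCDC26 was near the top of both lists. In control cells it ran from 129006244 to 129728414, joined 245 peaks and ranked 5th of 24668. After treatment it ran from 129229337 to 129780590, joined 191 peaks and ranked 2nd of 18541. The joined region over MYC and PVT1 ranked 135th in control cells and 33rd after treatment, and the one over CYRIB 31st and 8th. The lists differ in length and the joined regions differ in extent, so that these ranks are positions within each list. With joining within 5 kb the direction turned for CYRIB and PVT1 but not for MYC. A separate joined region over MYC ranked 268th after treatment, while no control region over MYC was among the first 1455. The region over CYRIB ranked 13th in control cells and 41st after treatment. The one over PVT1 ranked 123rd in control cells and was split after treatment into pieces, the best of which ranked 400th. The region over CCDC26 ranked 4th in control cells and was split after treatment as well, into pieces that ranked 3rd, 5th, 110th, 255th and 653rd. Compared with the other 2.5 Mb windows of the chromosome, 58 in all, this one was 5th by control length, 3rd by treated length and 2nd by kept share, where the median window kept 15.9%. Other windows were close to it: the window ranked 1st also kept 29.3%, and the one ranked 3rd kept 28.9%. The cover of positions without a control peak in this window, 8.87%, was the highest of the 58, and the next highest were 8.69% and 8.63%.

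The cell type was checked against marker genes. A control peak whose −log10 q was 5 or more was present at 7 of 8 myeloid markers, 1 of 4 B cell markers and none of 3 T cell, 3 erythroid and 3 epithelial and liver markers. Peaks covered 30.6 to 100% of the myeloid markers, up to 86.1% of a B cell marker and 55.9% of a T cell marker, and at most 2.17% of the others.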

How the data were processed

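H3K27Ac ChIPmentation was carried out in MOLM13 cells, with 1 control and 1 SNDX-50469 library (500 nM, 16 hours), and 2 inputs not analysed here. The authors deposited 1 broad peak list per library, called separately and not pooled. The deposited columns hold a score, the fold enrichment (a ratio to the background used in calling that list), the −log10 p-value and the −log10 q-value. The submitters' processing notes name GRCh38, Trim Galore 0.6.5, Bowtie2 2.3.4.2, Picard 2.9.0 and MACS2 2.1.2, and the study's methods name TopHat2, hg38, diffReps and ROSE. Calling options and the use of inputs are not given in the sources used here. The smallest −log10 p of a listed peak was 2.68 for control and 3.93 for SNDX-50469, so that weak peaks were listed to a lower limit in control.

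Covered length, shared length and peaks sharing at least 1 bp were computed with Python 3.11.15, pandas 2.3.3 and numpy 2.4.6, and the interval code was tested on simulated data. Genes were those of RefSeq (GRCh38.p14) with 5 kb on both sides. Intervals are Wilson 95% intervals from scipy 1.17.1. The members, marker and gene lists were chosen with earlier results of these data known. The text names the 3 members, genes of the region with a peak within 5 kb, the 10 widest peaks of each list, peaks whose −log10 q was 5 or more, and 3 genes of most similar cover per member. Other peaks, bins and genes were chosen after their values were seen. Alternatives were other peak strengths, widths, overlaps, flanks, bin sizes and joining distances.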

Additional observations from a re-analysis of the deposited data

How the results depend on the processing

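No paired analysis was possible because there is 1 library of each condition. The kept share is given in the order region, MYC, PVT1, gap, CCDC26, rest of chromosome 8. It was 33.8, 0, 0, no value, 43.1 and 7.87% with peaks of a −log10 q of at least 5 in both lists (the gap had no such control peak), and 22.7, 58.1, 6.03, 3.51, 36.6 and 13.1% at 2. With control limited to the smallest −log10 p of the treated list it was 41.4, 59.6, 23.0, 14.4, 54.0 and 26.2%, and with the control list of chromosome 8 trimmed to the treated covered length 48.2, 75.5, 35.6, 12.9, 58.3 and 31.1%. Without peaks under 500 bp it was 24.4, 51.2, 11.5, 7.75, 45.8 and 15.2%. As a share of control peaks sharing 1 bp it was 36.2, 55.6, 41.7, 30.0, 69.1 and 24.7%, and of control peaks covered over 50% of their length 11.9, 22.2, 10.7, 10.1, 18.2 and 7.92%. The causes of these shifts were not tested. The order changed in places: PVT1 was below the rest of chromosome 8 at both strength limits, with control limited by p and without short peaks, and the gap was above it in both counts of peaks. CCDC26 was above the rest of the chromosome under each of these alternatives, and so was MYC except at a −log10 q of 5. Without the densest stretch of CCDC26, an alternative chosen after seeing the data, the region kept 21.8%.

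The density of treated peaks without a control peak was 1.30 times that of the rest of chromosome 8. Under the alternatives it was 1.43 and 1.41 times. The rest of the chromosome was pooled here, and the windows next to the region were not compared by this density. With joining within 5 kb, the region over CCDC26 ranked 4th in control, and the best of the pieces it was split into after treatment ranked 3rd. With joining within 25 kb, the joined region over CCDC26 ranked 4th in control and 3rd after treatment, and it took in CYRIB in both lists. The one over MYC and PVT1 ranked 98th in control and 11th after treatment. With peaks joined within 1 kb, the widest peak of the region ranked 36th in control, where it lay over CYRIB and ran past the edge of the region, and 5th after treatment, where it lay in CCDC26, so that the ranks are of different places. The bin with the longest treated cover began at 129.65 Mb with 25 kb bins too, but at 129.5 Mb, inside CCDC26, with 100 kb bins. With 1 library per condition and no read depth, a lower number of peaks cannot be told apart from a weaker library.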

Other observations

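Proteins of the MYC network share with MYC the partner MAX or bind related DNA elements. Of 12 genes of this network outside the region (MYCN, MYCL, MAX, MXD1, MXI1, MXD3, MXD4, MNT, MGA, MLX, MLXIP and MLXIPL), 11 had a control peak in their body or within 5 kb, and each of the 11 had less covered length after treatment, as did 98.7% of all protein-coding genes that control peaks marked on chromosomes other than 8, so that this count is at the background. All lie on those chromosomes. Their median kept share was 9.43%, beside 1.90% for all protein-coding genes there with a control peak. Cover in control was not matched between the 2 sets, and its part in this difference was not tested. MAX, the dimer partner of MYC, had 30.9 kb covered in control cells and 2.13 kb after treatment, a kept share of 6.90%. MNT, a repressor that competes for MAX, kept 35.9%, and MXD4, of the same kind, had 6.28 kb in control cells and no peak after treatment. MYCN had no peak in either list. As with the 3 members, no test was made, since each condition had 1 library.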
